A study of Caenorhabditis elegans with 6 samples.

Results

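The linc genes of Caenorhabditis elegans are loci that the annotation names as long intergenic noncoding RNAs. They were taken as every gene whose symbol in the Ensembl annotation (release 115) of WBcel235 is linc- followed by a number. This gave 170 genes of the 46940 features in the deposited count table, and every one of the 170 annotated linc genes had a row there. The annotation classes 169 of them as lincRNA and linc-171 as ncRNA. The data came from whole, untreated, wild-type worms of the N2 Bristol strain kept on nematode growth medium plates at 20 °C, sampled at day 10 (3 libraries) and as L4 larvae (3 libraries), the last larval stage. The labels name no mutation, transgene or treatment in either age and do not say from which event day 10 was counted. The columns of the deposited counts carry the prefix Ev before the age in all libraries, and the sample titles do not explain it. Young adults are not analysed here, so larval development and adult age cannot be told apart. Whether the replicates were grown as separate cultures is not stated, and the p-values below cover the spread among these libraries alone, part of which may be technical. Libraries were made with a TruSeq RNA kit from total RNA of synchronized, washed worms, and no source used here says whether polyadenylated RNA was selected.

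A long noncoding RNA is a transcript longer than the classical small RNAs that has no recognised protein-coding reading frame. Such RNAs can act as scaffolds or decoys for proteins and small RNAs, or can mark the act of transcription itself, and in most genomes they are less abundant and more restricted in time and tissue than messenger RNAs. The symbol linc is given for a locus between coding genes and says nothing of function, so no role is stated below for single linc genes. Better studied worm relatives are tts-1, a transcript known for high levels in long-lived insulin-signalling mutants, lep-5, an RNA of the developmental timing pathway, and rncs-1, a double-stranded RNA that competes for Dicer.

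Total counts were 23257607 to 25616846 in the day 10 libraries and 19576201 to 23972794 in the L4 libraries. Levels are given as CPM, a gene's counts scaled to a common library size after TMM normalization, and, where genes are compared with each other, as the authors' FPKM, which also divides by gene length. Tissue markers were read to check the label of whole worms. Markers were taken for body-wall muscle, intestine, neurons, epidermis, germ line, oocyte and eggshell, sperm and early embryo. Each had a read in at least 1 library at day 10, and all but tbx-38 in L4. Some rested on few reads, such as dpy-13 (3, 1 and 1 counts) and spe-38 (0, 3 and 9) at day 10. In L4, end-1 had 0, 2 and 0 counts and end-3 had 0, 1 and 4. The summed level of 8 oocyte and eggshell genes was 9076 to 13433 CPM at day 10 and 475 to 508 CPM in L4, and all 8 were higher at day 10 by edgeR's test. The 6 sperm genes summed to 7.84 to 14.6 CPM at day 10 and 380 to 383 CPM in L4, and all 6 were lower at day 10. The 4 epidermal genes summed to 55.4 to 120 CPM at day 10 and 3655 to 4041 CPM in L4, and 3 of the 4 were lower. The 4 body-wall muscle genes summed to 268 to 306 CPM at day 10 and 9129 to 10222 CPM in L4, and all 4 were lower. The 4 intestinal genes summed to 486 to 798 CPM at day 10 and 3232 to 3415 CPM in L4 (4 lower), the 4 neuronal genes to 274 to 298 CPM at day 10 and 214 to 233 CPM in L4 (1 higher, 3 lower). The 4 germ-line genes summed to 2337 to 2757 CPM at day 10 and 1370 to 1386 CPM in L4 (3 higher, 1 lower), and the 6 early-embryo genes to 135 to 151 CPM at day 10 and 14.3 to 17.5 CPM in L4 (4 higher, 2 not tested). Single genes made up most of 2 of these sums. In the early-embryo sum it was pal-1, with a mean of 118 CPM at day 10 and 15.8 CPM in L4. In the neuronal sum it was snb-1, its only gene that rose, with 269 and 157 CPM. Day 10 replicate 3 stood apart from the other day 10 libraries in the number of features with a read and in linc reads, as detailed below, and its removal is reported where it ends a call or moves a named value by over 1.5 times. The part of these shifts in the linc results was not tested.

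How many linc genes were detected at each age was asked first. With detection set at 1 read in each of the 3 libraries of an age, 78 linc genes were detected at day 10 and 75 in L4. Of these, 57 were detected at both ages, 21 at day 10 alone and 18 in L4 alone, while 74 met the rule at neither age. The shares were 45.9% of the 170 at day 10 and 44.1% in L4. The same rule found 82.6% of 19725 protein-coding genes at day 10 and 81.0% in L4, and among 57 antisense noncoding anr genes it found 14.04% at day 10 and 24.6% in L4. The order of the ages depended on the rule. At least 1 read in any library was seen for 137 linc genes at day 10 and 121 in L4, but at least 10 counts over the 3 libraries for 59 at day 10 and 62 in L4. At a scaled level of at least 0.1 CPM in each library, 49 were detected at day 10 and 58 in L4, at 0.1 FPKM or more in each library 67 at day 10 and 63 in L4, and at 1 FPKM or more in each library 18 at day 10 and 23 in L4. Without day 10 replicate 3, 117 linc genes had a read in any remaining day 10 library, against 121 over all 3 L4 libraries. That sets fewer day 10 libraries against 3 of L4, and leaving out a library can only lower these counts. Without day 10 replicate 1 or 2 the day 10 number was 129 and 131. Without L4 replicate 1, 2 or 3 the L4 number was 111, 112 and 117. Leaving out 1 library changes the number of libraries a gene must appear in, so the rules that ask for every library move up: without day 10 replicate 3, 83 genes had a read in each remaining day 10 library, against 75 in L4, and 72 were at 0.1 FPKM or more, against 63 in L4. The rule of 10 counts sums over libraries, so its numbers move down when a library is left out. Without day 10 replicate 3 it gave 46 at day 10, against 62 over all 3 L4 libraries. Without L4 replicate 1, 2 or 3 it gave 54, 49 and 49 in L4. These values without a library were chosen after the data were seen. No test was made of these counts.

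**Figure D1:**
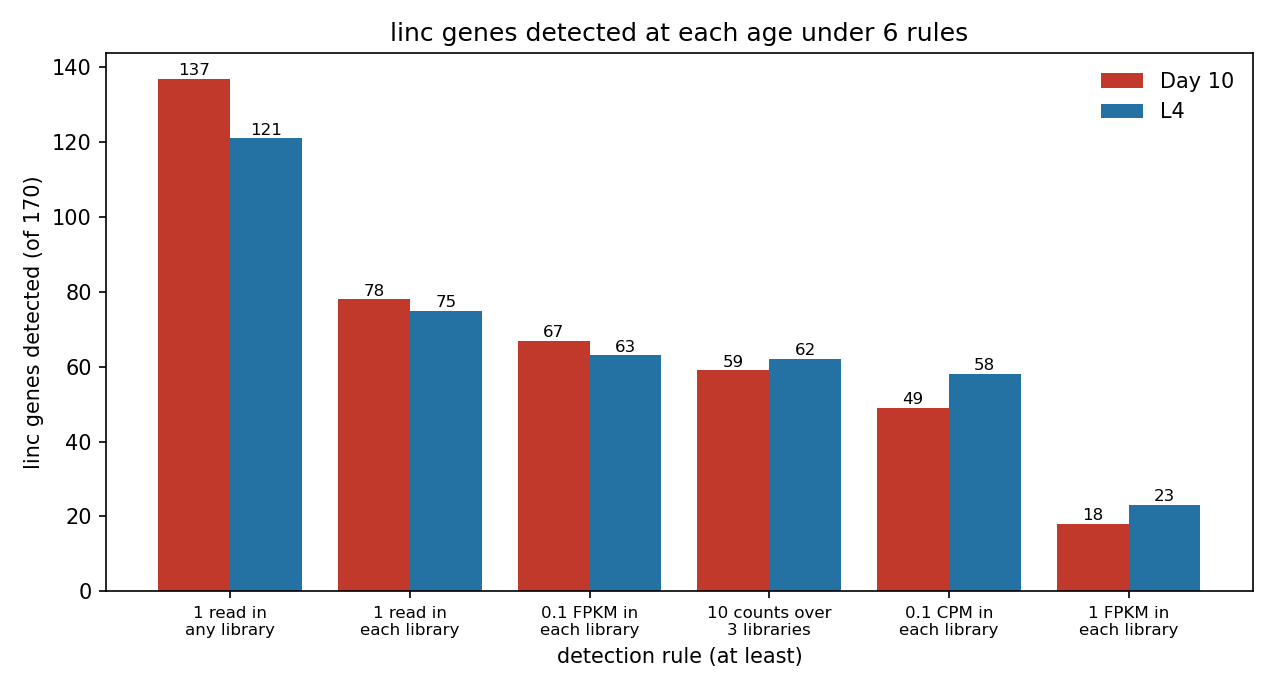
Number of the 170 linc genes detected at day 10 (red, left) and in L4 (blue, right) under 6 rules along the horizontal axis, each a minimum. The order of the ages turns: 137 against 121 with 1 read in any library, and 18 against 23 with 1 FPKM in each library. By the first rule, 117 were detected at day 10 without day 10 replicate 3. In L4 it was 111 to 117 with 1 L4 library left out.

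Most linc genes sat near the limit of these libraries. No read in any of the 6 libraries was found for 26 of them, which allows at most 3 counts, or 0.119 to 0.123 CPM in a day 10 library and 0.128 to 0.152 CPM in an L4 library. These limits cover counting error only. A further 53 had 1 to 9 reads over the 6 libraries, 69 had 10 to 99, and 22 had 100 or more. The median linc gene had 6 reads over the 3 day 10 libraries and 4 over the 3 L4 libraries. Reads at 1 age alone were found for 23 genes at day 10 and 7 in L4, but nearly all of these rest on a few reads. Only linc-77 and linc-12 had 10 or more counts at day 10 and none in L4, and only linc-65 had 10 or more in L4 and none at day 10. A gene with no count at an age is not shown to be silent there.

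A few linc genes carried most of the reads. The 10 genes with the most reads held 61.5% of the 11864 linc reads, and linc-22, at 4071 bases among the longest, held 21.3% by itself. Scaled for length, the order differed. At day 10 the highest authors' FPKM was that of linc-9 (9.99 ± 1.05, mean ± SD, n = 3). It was followed by linc-7 (7.18 ± 6.34 FPKM), linc-37 (7.11 ± 2.97 FPKM), linc-29 (5.41 ± 1.33 FPKM) and linc-22 (5.27 ± 1.65 FPKM), whose ranges overlapped one another. In L4 linc-15 was highest (22.1 ± 2.66 FPKM), and linc-72 came next (16.3 ± 2.89 FPKM), though the authors' values imply 343 bases for linc-72 where the annotation used here has 622. Below them, linc-1 (8.37 ± 0.631 FPKM), linc-8 (7.53 ± 1.05 FPKM) and linc-9 (6.996 ± 2.49 FPKM) stood within each other's spread.

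Day 10 was then compared with L4 by edgeR's quasi-likelihood test over the whole table. Enough counts for the test were present in 43 of the 170 linc genes. The tested gene with the fewest reads was linc-93 with 43 over the 6 libraries, and the untested genes with the most were linc-50 with 65 and linc-128 with 58. Of the 43 tested genes, 10 rose and 18 fell at day 10 at a Benjamini-Hochberg adjusted p of 0.05, and 15 passed in neither direction. The 28 changed genes are 65.1% of those tested, against 85.4% of all 15956 genes tested. The share higher was 23.3%, against 40.5% of all genes, and the share lower 41.9%, against 45.0%. The tested linc genes collected far fewer reads than most genes, with a median of 0.752 CPM against 12.8 CPM for all tested genes. Among tested genes with a mean of 0.334 to 2 CPM, a range chosen after the values were seen, 22 of 33 linc genes (66.7%) and 71.5% of all 3208 genes changed. In that range 8 linc genes rose (24.2%, against 23.2% of all) and 14 fell (42.4%, against 48.3% of all). Set beside genes of like level, the linc genes changed at about the background rate in both directions. Without day 10 replicate 3, 45 linc genes were tested and 28 called (62.2%, against 87.0% of all genes tested in that fit), of which 25 were among the 28 called with it.

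The way genes entered the test shaped these counts. Of the 43, 17 had enough counts in every library of L4 but not of day 10, 9 in every library of day 10 but not of L4, 13 at both ages, and 4 at neither age by itself. A gene that enters through 1 age only is favoured to differ, so the counts of changed linc genes are a description. Of the 13 that entered at both ages, 5 changed (38.5%), against 84.3% of the 12025 genes that did so. The 5 were 3 higher (linc-22, linc-76 and linc-81) and 2 lower (linc-8 and linc-15). The 12025 genes were not matched to the 13 in level, so this gap cannot be read as a trait of linc genes. The median log2 fold change of the tested linc genes was −0.31, and −0.16 over all tested genes. Its sign depended on how genes entered: over the 13 that entered at both ages it was 0.28, and 0.11 over all genes that did so. For all tested linc genes and all tested genes, upper-quartile scaling gave −0.75 and −0.62, and DESeq2's size factors −0.15 and 0.00. Under the upper-quartile setting 6 of the 43 linc genes rose, against 33.2% of all genes, and 20 fell (46.5%, against 52.7%). DESeq2 called 27 linc genes, against 84.8% of all genes it tested, and 26 of them were among the 28 of edgeR. Without a filter on low counts edgeR called 36 of 144 linc genes, against 57.8% of all genes. Of the 144, 16 were higher, against 27.5% of all genes, and 20 lower, against 30.2% of all genes. Of the 101 linc genes below the filter it called 9 (8.91%), against 11.3% of all genes below it. Of the 144 linc genes with a p in the authors' deposited table, 28 (19.4%) had an adjusted p under 0.05, against 54.6% of the 24922 features with a p there, and 24 of them were also called by edgeR. For 10 linc genes (23.3%, against 41.3% of all tested genes) every day 10 library lay above every L4 library, and for 18 (41.9%, against 46.2%) every one lay below. Together these are 65.1% of the 43, against 87.6% of all tested genes. They are the 28 changed genes, except that linc-16 rose with overlapping libraries and linc-9 did not overlap but missed the threshold. In whole worms, fewer cells of a type and less RNA per cell cannot be told apart.

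**Figure D2:**
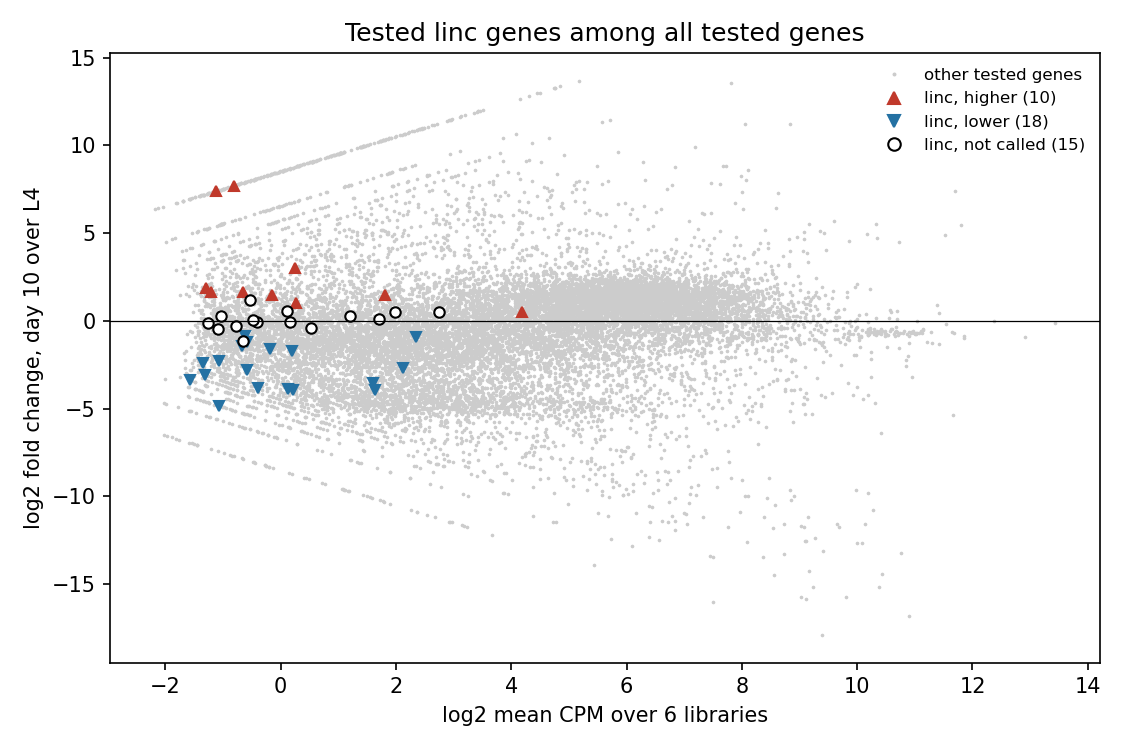
Log2 fold change of day 10 over L4 (vertical axis) against log2 mean CPM over the 6 libraries (horizontal axis) for all 15956 tested genes, with the 43 tested linc genes as triangles for those that rose (10, pointing up) or fell (18, pointing down) and open circles for the 15 that did not pass. Apart from linc-22, the linc genes lie at the low end of abundance, and linc-12 and linc-77, with no L4 count, lie on the edge set by counts of 0.

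The linc genes that fell formed the larger group, with log2 fold changes of −0.88 to −4.85, and 16 of the 18 fell at least 2-fold. All of the 18 but linc-8 and linc-15 entered the test through L4 alone. Such genes are favoured to fall, so the size of this group and their p-values are descriptions. With 9 that rose by as much, 25 of the 43 (58.1%) changed at least 2-fold, against 66.3% of all tested genes. The gene linc-82 (WBGene00219570, III, 3664858 to 3667041, plus strand, 4 exons) had 0.358, 0.403 and 0.369 CPM at day 10, against 5.53, 6.19 and 5.83 CPM in L4. The ages stood far apart, with little spread within either. It averaged 0.377 ± 0.0237 CPM at day 10 and 5.85 ± 0.327 CPM in L4, a log2 fold change of −3.94 ± 0.05 (edgeR's adjusted p = 3.84e-07). Its standard error, like the others here, comes from log2(CPM + 0.5) and is therefore small for low genes. At linc-15 (WBGene00219571, X, 11991484 to 11991933, minus strand), the level was 1.51, 1.17 and 0.861 CPM at day 10, against 6.55, 7.64 and 8.40 CPM in L4. The log2 fold change was −2.66 ± 0.19 (edgeR's adjusted p = 7.81e-06). It was the most abundant linc gene per length in L4 and kept counts in every day 10 library.

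Levels of linc-72 (WBGene00219590, II, 8819542 to 8820163, plus strand, 1 exon) were 1.07, 0.161 and 0.164 CPM at day 10, against 6.09, 4.56 and 6.24 CPM in L4. Day 10 replicate 1 stood above the other 2 day 10 libraries, but below every L4 library. The log2 fold change was −3.57 (edgeR's adjusted p = 0.000486), and −5.05 without day 10 replicate 1. For linc-61 (WBGene00195170, V, 16043099 to 16043761, minus strand), values were 0.0398, 0.0807 and 0.287 CPM at day 10, against 2.79, 2.22 and 1.56 CPM in L4. Those of linc-89 (WBGene00219646, IV, 3430310 to 3432470, minus strand) were 0.0796, 0.202 and 0.123 CPM at day 10, against 2.28, 2.39 and 1.51 CPM in L4. The gene linc-66 (WBGene00219667, II, 2615725 to 2616219, minus strand) had 0.0398, 0.202 and 0.041 CPM at day 10, against 1.47, 1.28 and 1.56 CPM in L4. All 3 were present at 1 to 7 reads in each day 10 library and at 29 or more in each L4 library, and the ages did not overlap. Their log2 fold changes were −3.97, −3.89 and −3.85 in that order (edgeR's adjusted p = 0.000122, 2.56e-05 and 0.000103). Without day 10 replicate 3 the value of linc-61 was −5.04, and without day 10 replicate 2 that of linc-66 was −4.95.

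Smaller falls were seen for linc-39 (WBGene00219727, I, 4683182 to 4683865), with 0.119, 0.202 and 0.164 CPM at day 10, against 1.27, 0.938 and 1.31 CPM in L4, and a log2 fold change of −2.81 (edgeR's adjusted p = 0.000129). The gene linc-21 (WBGene00219688, IV, 4242086 to 4242466) had 0.557, 0.686 and 0.369 CPM at day 10, against 1.78, 2.005 and 1.46 CPM in L4 (log2 fold change −1.69, edgeR's adjusted p = 0.00108). The gene linc-8 (WBGene00219707, II, 2501838 to 2503802) had 4.42, 3.23 and 2.99 CPM at day 10, against 7.16, 5.67 and 7.09 CPM in L4. It fell by 0.90 on the log2 scale (edgeR's adjusted p = 0.00329), with no overlap between the ages. The gene linc-110, singled out after its values were seen as the fitted fall of greatest size, had 0, 2 and 0 counts at day 10 and 14, 25 and 20 in L4. The ratio of its pooled levels, L4 over day 10, was 34.8 (exact 95% counting interval 9.21 to 294). All of its day 10 counts were in replicate 2. Exons of linc-110 overlap those of linc-133. The other 8 genes that fell were linc-1, linc-14, linc-17, linc-41, linc-83, linc-93, linc-107 and linc-109, with means of 0.0539 to 0.459 CPM at day 10 and 0.615 to 1.32 CPM in L4. The call of linc-109 was lost without any 1 of the 6 libraries, that of linc-14 without replicate 1 or 2 of either age, and that of linc-107 without day 10 replicate 1 or 2 or L4 replicate 1 or 3. The log2 fold change of linc-83 was −3.09, and −3.98 without day 10 replicate 2.

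**Figure D3:**
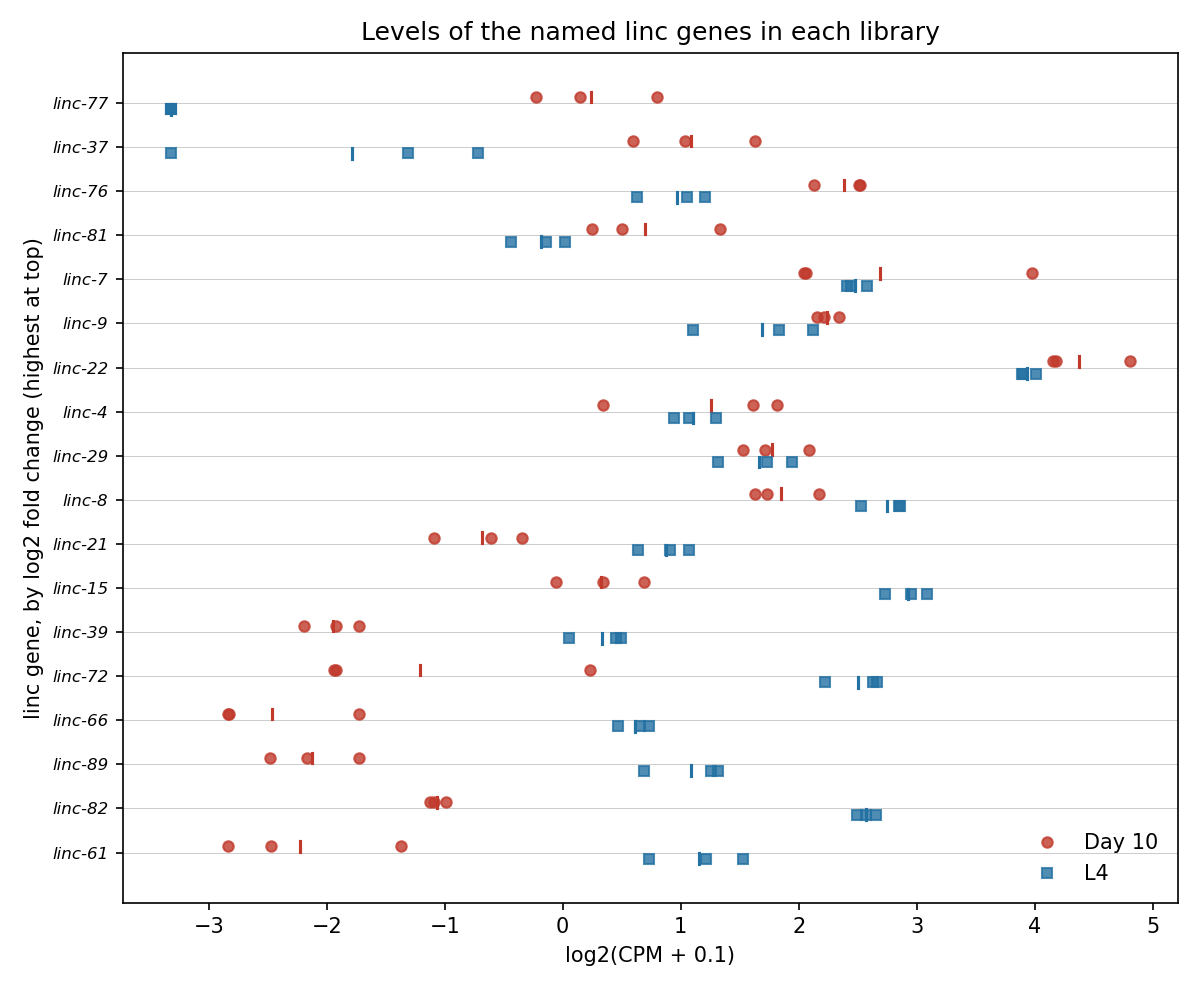
Level of each named linc gene in each library as log2(CPM + 0.1) on the horizontal axis, with day 10 as red circles above L4 as blue squares, a short line at the mean of the log values, and genes ordered by log2 fold change. The ages do not overlap for the 9 lowest rows, linc-61 up to linc-8, while linc-29, linc-4 and linc-7 overlap.

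Among the 10 linc genes that rose, 9 did so at least 2-fold. All of the 10 but linc-22, linc-76 and linc-81 entered the test through day 10 alone and are favoured to rise, so their p-values are descriptions too. The gene linc-77 (WBGene00219741, IV, 4059931 to 4061723, minus strand) had 0.756, 1.01 and 1.64 CPM at day 10 and 0 counts in all 3 L4 libraries. Against the limit of 3 counts over the pooled L4 libraries it was at least 23.8-fold higher at day 10 (edgeR's adjusted p = 0.000331), and at least 18.5-fold without day 10 replicate 3. Its exons overlap an ncRNA gene and a pseudogene. The gene linc-12 (WBGene00219687, II, 2681408 to 2681658, minus strand), named after its values were seen because it was the other tested gene with no L4 count, had 24, 24 and 20 counts at day 10, against 0, 0 and 0 in L4. It was at least 19.2-fold higher at day 10 by the same limit (edgeR's adjusted p = 0.000133). At linc-37 (WBGene00219709, III, 832984 to 833347, plus strand), the level was 1.95, 1.41 and 2.99 CPM at day 10, against 0.507, 0 and 0.302 CPM in L4. Every day 10 library stood above every L4 library, and the log2 fold change was 3.01 ± 0.39 (edgeR's adjusted p = 0.00332). It was 3.85 without L4 replicate 1 and 2.36 without L4 replicate 2.

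The gene linc-76 (WBGene00219619, III, 11126863 to 11129355, minus strand) had 5.61, 4.28 and 5.62 CPM at day 10, against 1.98, 1.45 and 2.21 CPM in L4. It had the most reads of the genes with a rise of at least 2-fold, at a log2 fold change of 1.46 ± 0.19 (edgeR's adjusted p = 0.000333). Values of linc-81 (WBGene00219636, V, 19895684 to 19897795, minus strand) were 1.31, 1.09 and 2.42 CPM at day 10, against 0.913, 0.640 and 0.805 CPM in L4, a log2 fold change of 1.03 (edgeR's adjusted p = 0.0315). This call rested on day 10 replicate 3, without which the log2 fold change was 0.64 and the adjusted p 0.111, and it was also lost without any 1 of the L4 libraries and with upper-quartile scaling. The other genes that rose were linc-16, linc-63, linc-91 and linc-116, with log2 fold changes of 1.498 to 1.86 and means of 0.646 to 1.34 CPM at day 10 and 0.169 to 0.461 CPM in L4. The gene linc-16 had 0.716, 1.13 and 2.17 CPM at day 10, against 0.304, 0.725 and 0.352 CPM in L4, and its call was lost without day 10 replicate 3 or without L4 replicate 1 or 3. The call of linc-91 was lost without day 10 replicate 2 or without L4 replicate 1 or 2, and without L4 replicate 3 it had a log2 fold change of 2.72, against 1.63 with all libraries.

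The linc gene with the most reads changed by less than 2-fold. At linc-22 (WBGene00219699, X, 9069138 to 9073735, plus strand, 5 exons), levels were 18.1, 17.7 and 27.8 CPM at day 10, against 14.9, 16.0 and 14.7 CPM in L4. It averaged 21.2 ± 5.76 CPM at day 10 and 15.2 ± 0.692 CPM in L4, a log2 fold change of 0.48 ± 0.21 (edgeR's adjusted p = 0.0354). The value was 0.031 with upper-quartile scaling (adjusted p = 0.881), and the call was lost without any 1 of the L4 libraries. Its log2 fold change was 0.26 without day 10 replicate 3 (adjusted p = 0.0341). Its exons overlap piRNA genes and a snoRNA gene. For linc-7 (WBGene00219609, X, 16002599 to 16003728, plus strand, 1 exon), day 10 held 4.02, 4.07 and 15.6 CPM, against 5.89, 5.20 and 5.33 CPM in L4. Day 10 replicate 3 lay 3.86-fold above the mean of the other day 10 libraries, which both lay below L4. The log2 fold change was 0.53 ± 0.61 (edgeR's adjusted p = 0.397) and turned to −0.41 without day 10 replicate 3 (adjusted p = 0.0396). This gene lies within the span of the coding gene C09G1.4 on the other strand, without touching its exons.

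Other linc genes with many reads did not pass the test. The gene linc-9 (WBGene00219678, I, 3703542 to 3704956) had 4.54, 4.36 and 4.96 CPM at day 10, against 4.26, 2.05 and 3.47 CPM in L4 (edgeR's adjusted p = 0.103, log2 fold change 0.51). With DESeq2 its adjusted p was 0.0357, and with edgeR without L4 replicate 1 it was 0.0462. Levels of linc-29 (WBGene00189951, IV, 6354024 to 6357243) were 3.18, 2.78 and 4.14 CPM at day 10, against 2.39, 3.75 and 3.22 CPM in L4 (edgeR's adjusted p = 0.699). For linc-4 (WBGene00219306, II, 6268939 to 6269516), they were 3.42, 1.17 and 2.95 CPM at day 10, against 1.83, 2.005 and 2.36 CPM in L4 (edgeR's adjusted p = 0.497). Without day 10 replicate 2 its log2 fold change was 0.65 (adjusted p = 0.0368), against 0.28 with all libraries. The authors' FPKM imply 855 bases for linc-4, where the annotation used here has 216 exonic bases. The feature they counted may therefore differ from the locus given, and the rank of linc-4 by FPKM is uncertain. Among the 15 genes that passed in neither direction, log2 fold changes ranged from −1.15 to 1.19, and a p that misses the threshold does not show equal levels.

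Summed over all members, linc reads were 70.5, 66.6 and 109 CPM at day 10, against 92.2, 90.4 and 94.3 CPM in L4, here as a share of the raw library total without TMM scaling. Day 10 replicate 3 was the highest of the 6 libraries and the other day 10 libraries the lowest. The mean was 82.0 ± 23.4 CPM at day 10 and 92.3 ± 1.98 in L4 (SD, n = 3), and an exact two-sided permutation test gave p = 0.4, where 0.1 is the smallest possible. Without day 10 replicate 3 the mean at day 10 was 23.8 CPM below L4, against 10.3 with it. Without linc-7 and linc-22, day 10 libraries held 48.8, 45.2 and 63.3 CPM, against 71.3, 69.7 and 74.3 in L4, so all 3 lay below L4. That split was made after the values were seen and was not tested.

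**Figure D4:**
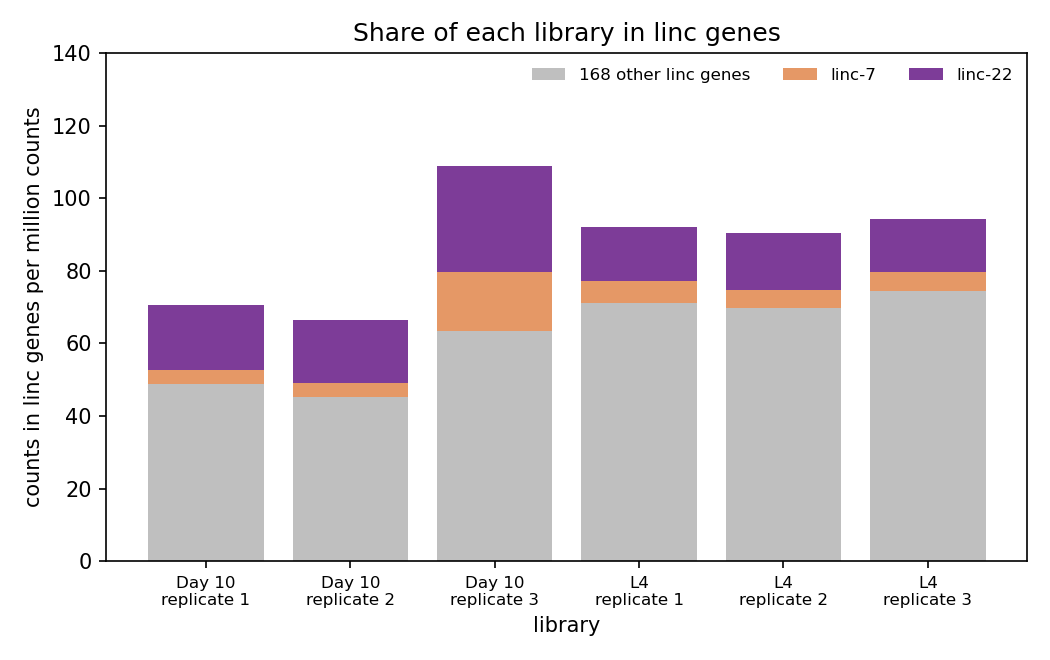
Share of each library in linc genes, in CPM of the raw total, with linc-22 (purple), linc-7 (orange) and all other linc genes (grey) stacked. Day 10 replicate 3 reaches 109 CPM against 70.5 and 66.6 in the other day 10 libraries, while the L4 libraries lie between 90.4 and 94.3.

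The same library also held reads in more members. A read was found for 100, 100 and 118 linc genes in the day 10 libraries, against 100, 99 and 95 in the L4 libraries, although day 10 replicate 3 had the fewest total counts of its age. The only day 10 reads of 20 linc genes were in replicate 3, against 8 in replicate 1 and 6 in replicate 2. Over all features, a read was found for 20057, 20247 and 21207 in the day 10 libraries, and for pseudogenes 1104, 1126 and 1218. For piRNA genes it was 297, 322 and 421. Markers moved too in that library, where the oocyte and eggshell genes summed to 9076 CPM, against 13433 and 12643 CPM in replicates 1 and 2, and the epidermal genes to 120 CPM, against 55.4 and 75.8 CPM. The part of these differences in the linc values was not tested.

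What the linc genes share in structure was taken from the annotation. Exonic length ranged from 101 to 4183 bases with a median of 456.5, and 54 had a single exon. The median length was 568 bases for the 43 tested genes, 440 for the 101 with reads but too few to test, and 359 for the 26 without a read. Of the tested genes, the 10 that rose had a median length of 1314 bases, the 18 that fell 436 and the 15 others 631. Longer genes collect more reads, so length and detection are not independent. By chromosome, no read was found for 11 of 33 genes on V, 6 of 33 on X, 4 of 26 on IV, 2 of 22 on I, 2 of 34 on II and 1 of 22 on III. These counts are descriptions with no test.

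Intergenic in the name did not mean free of other annotated genes. Exons of 60 of the 170 linc genes overlapped an exon of another gene, on the same strand for 39 and on the other strand for 32, and the partner was a protein-coding gene for 32 of them. No source used here gives the strand setting of the counting, so reads of such pairs may not be told apart. Of the 43 tested linc genes, 13 had such an overlap and 8 of these had it with a coding gene. Among the 8, linc-16, linc-37 and linc-76 rose, linc-72, linc-82 and linc-89 fell, and linc-40 and linc-56 did not pass. Of the 30 tested genes with no overlap, 5 rose (16.7%, against 40.5% of all tested genes) and 13 fell (43.3%, against 45.0%). These shares of all genes are not matched to the 30 in level. From 0.334 to 2 CPM, 23.2% of all tested genes rose and 48.3% fell. The partner did not always move with the linc gene. C46F11.6, on the strand opposite linc-82, had 9.91, 9.28 and 12.02 CPM at day 10, against 12.8, 11.4 and 12.5 CPM in L4 (edgeR's adjusted p = 0.162). The partner of linc-37, on the same strand, is zip-2, a bZIP transcription factor of the immune response, at 261 ± 63.7 CPM at day 10 and 275 ± 12.2 CPM in L4 (edgeR's adjusted p = 0.684). F46C5.1, opposite linc-72, moved the other way, with 3.20 ± 1.86 CPM at day 10 and 0.574 ± 0.158 CPM in L4 (log2 fold change 2.47, edgeR's adjusted p = 0.0014). C04C3.7, which overlaps linc-89 on the same strand, had no counts in any library. Y48A6C.4, opposite linc-76, rose with it, by a log2 fold change of 0.97. On the same strand as linc-16, fbxa-3 had 2.31, 2.62 and 4.72 CPM at day 10, against 0.913, 1.83 and 0.905 CPM in L4, and rose with it (log2 fold change 1.38, edgeR's adjusted p = 0.00965). Like linc-16, it was highest in day 10 replicate 3 at day 10 and in replicate 2 in L4. Y82E9BL.18, on the same strand as linc-40, rose by 2.08 on the log2 scale, and ssr-2, opposite linc-56, fell by 1.57, while neither linc gene passed the test.

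The nearest protein-coding gene of each tested linc gene lay 0 to 4724 bases away, with a median of 386, and it was itself tested for 38 of the 43. Where both passed the test, in 18 pairs, 11 moved in the same direction and 7 in opposite directions. No background share for such pairs was computed, so these numbers are not read as a link between neighbours. The pairs are not all separate, since col-34 is the neighbour of both linc-21 and linc-41. In 3 of them (linc-16, linc-72 and linc-76) the coding gene shares exons with the linc gene. Of linc genes that rose, 5 had a neighbour that rose and 1 a neighbour that fell, and of those that fell, 6 had a neighbour that fell and 6 a neighbour that rose. Across the 38 pairs, Pearson's r was 0.36 and Spearman's rho 0.13, given as a description across genes that share the same libraries. Pearson's r leaned on the pair of linc-12 and F34D6.1, the largest on both sides, with fitted log2 fold changes of 7.40 and 10.07. Neither gene of that pair had an L4 count, so these fitted values have no measured L4 level behind them. The value of r without the pair was not computed. The linc-12 neighbour F34D6.1, 189 bases downstream on the same strand, had 4.65, 5.41 and 7.55 CPM at day 10 and no counts in L4, the same pattern as linc-12. Upstream of linc-66 on the other strand, msrp-5 fell with it, at 0.690 ± 0.340 CPM at day 10 and 19.2 ± 0.617 CPM in L4. By contrast C49F5.6, 191 bases downstream of linc-15 on the other strand, had 66.2 ± 4.18 CPM at day 10 and 1.75 ± 0.147 CPM in L4 (log2 fold change 5.24, edgeR's adjusted p = 1.71e-09) while linc-15 fell.

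Of the other neighbours of the named genes, T04D1.2 rose beside linc-39, which fell, with a log2 fold change of 1.63, and F47E1.4 rose beside linc-22 with 3.34. The histone gene his-1 beside linc-61 (edgeR's adjusted p = 0.883) and fars-2 beside linc-81 (adjusted p = 0.293) did not pass the test. The gene ilys-6, an invertebrate-type lysozyme beside linc-77, had 0.278, 0.161 and 0.164 CPM at day 10 and no counts in L4, too few to test.

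Close groups of linc genes were few. Within 5000 bases of each other lay 6 pairs, and in 2 of these both genes were tested. The genes linc-21 and linc-41 lie 320 bases apart on the minus strand of IV, and both fell, by 1.69 and 2.27 on the log2 scale. Their nearest coding gene is the cuticle collagen col-34, which had 4.58, 3.87 and 2.95 CPM at day 10, against 78.2, 80.2 and 77.6 CPM in L4. The genes linc-19 and linc-45 lie 456 bases apart on the plus strand of III and did not pass the test, with log2 fold changes of 0.07 and −0.11.

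**Figure D5:**
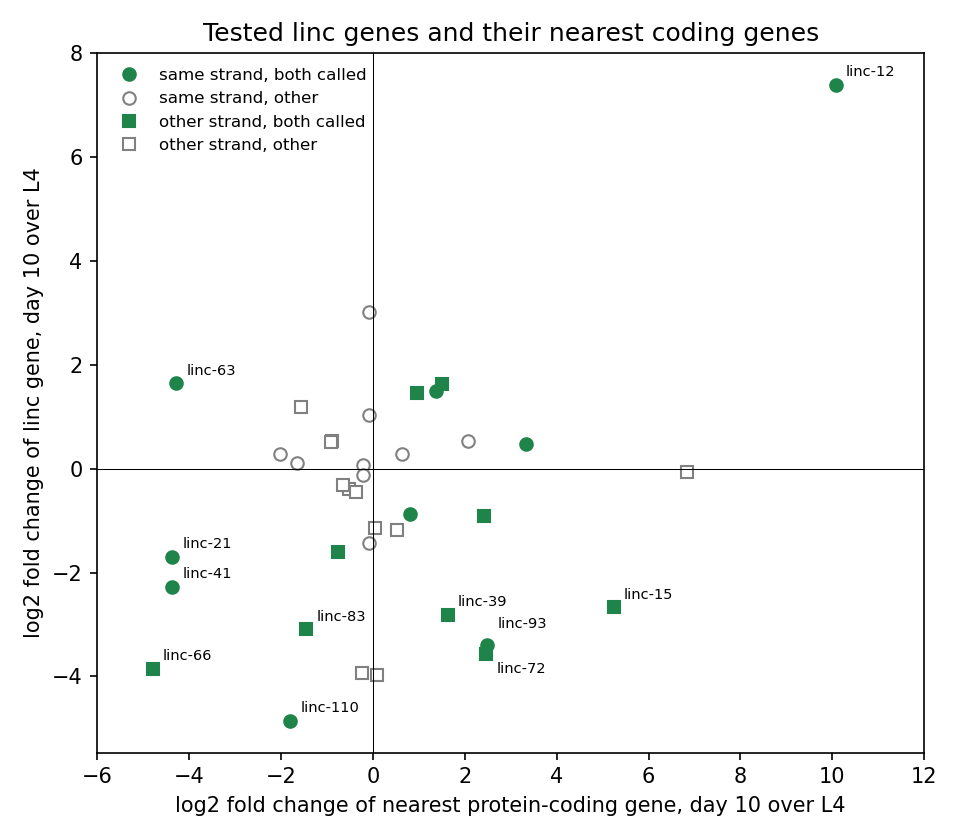
Log2 fold change (day 10 over L4) of each tested linc gene on the vertical axis against that of its nearest protein-coding gene on the horizontal axis, for the 38 pairs with both tested. Filled symbols mark the 18 pairs where both passed the test, circles the same strand and squares the other strand; 11 of the 18 lie in the quadrants of equal sign.

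The best studied long noncoding RNAs were set beside the linc genes. The transcript tts-1 (WBGene00006650, X) had 844, 894 and 772 CPM at day 10, against 219.8, 179.97 and 167 CPM in L4, a log2 fold change of 2.15 ± 0.13 (edgeR's adjusted p = 2.32e-07). The timing RNA lep-5 (WBGene00010424, X) had 37.2, 35.5 and 31.7 CPM at day 10, against 342, 332 and 338 CPM in L4, and fell by 3.28 on the log2 scale (edgeR's adjusted p = 1.92e-09). The Dicer competitor rncs-1 (WBGene00023069, X) had 80.3, 85.8 and 48.9 CPM at day 10, against 113.2, 119 and 111 CPM in L4, a fall of 0.68 (edgeR's adjusted p = 0.0177). Of the 57 antisense anr genes, 6 were tested, of which 1 rose and 2 fell (50% changed, against 85.4% of all tested genes).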

How the data were processed

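Per the submitters' processing notes, CASAVA 1.8, HISAT2 and HTSeq were used; no source used here gives the build, annotation or strand setting of the counting. The deposited file of raw counts per gene was tested as it stands. The deposited FPKM values follow from the counts, 1 length per gene and the library totals (largest relative deviation 1.4e-07). For 136 of 144 linc genes with reads that length equals the annotated exonic length. It differs for 8, which are linc-4, linc-14, linc-34, linc-38, linc-61, linc-72, linc-83 and linc-114. The authors' deposited table of p-values and of group means (a signal of scaled counts) was used only where named.

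Symbols and coordinates come from Ensembl release 115 of WBcel235. Day 10 was tested against L4 with edgeR 4.0.16 (R 4.3.3): TMM, edgeR's default count filter, robust quasi-likelihood fit, Benjamini-Hochberg adjustment over 15956 genes. The steps were tested on simulated data. Named genes were the largest changes (up to 8 each way, at least 1 CPM, no overlap), the 6 most abundant at each age and the 4 most abundant without a call. Members, lists and rules were chosen with earlier results of these data known. Alternatives were other scalings, filters, DESeq2 1.42.0, a replicate block, left-out libraries, other detection rules and removal of overlapping genes.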

Additional observations from a re-analysis of the deposited data

How the results depend on the processing

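Of the 28 calls, 21 (6 higher, 15 lower) were made in each of 13 other fits. The 7 lost in at least 1 were linc-14, linc-16, linc-22, linc-81, linc-91, linc-107 and linc-109. The fit with a minimum of 1 CPM in 3 libraries is not among those 13. It kept 13 of the 28 calls, and linc-12 and linc-77 were among those it did not make. With upper-quartile scaling 6 linc genes were higher and the median log2 fold change was −0.75. Without a filter on low counts, 144 linc genes were tested. Of these 16 were higher, against 27.5% of all genes, and the median was 0.055, against 0.14 over all genes. A minimum of 1 CPM in 3 libraries left 20 tested, of which 13 changed, 4 higher and 9 lower. That fit called 12775 genes in all, but their share of the genes tested was not computed, so the linc counts have no background there. Without genes whose exons overlap another gene, 30 were tested. Of these 18 changed (60.0%, against 85.4% of all tested genes) and 5 were higher (16.7%, against 40.5%). The shares of all genes are not matched in level, and from 0.334 to 2 CPM they were 71.5% changed and 23.2% higher. Leaving out single libraries gave 25 to 28 linc calls among 45 to 48 tested, 8 to 13 higher and 15 to 20 lower, with a median of −0.41 to −0.081. Over all tested genes these fits made 13248 to 14159 calls, with a median of −0.19 to −0.13. The share of all tested genes was computed only for the fit without day 10 replicate 3. It was 14159 of 16277 (87.0%), against 28 of 45 linc genes (62.2%). With single libraries left out, 78 to 89 linc genes were detected at day 10, 75 to 83 in L4 and 59 to 61 at both ages. The difference in summed reads was −23.8 to −2.59 CPM. Without day 10 replicate 3, linc-7 turned to −0.41; its values without single libraries ran from −0.41 to 0.87. At 0.1 CPM 49 genes were detected at day 10 and 37 at both ages, at 1 FPKM 18 at day 10, 23 in L4 and 12 at both, and with 1 read in any library 137, 121 and 114. The cause of these shifts was not tested, beyond the smaller or larger number of genes tested. With the replicate number as a block, 26 of the 43 tested linc genes changed, 9 higher and 17 lower, with a median of −0.28. Over all 15956 tested genes that fit called 13397, with a median of −0.18. In it linc-14, linc-22 (log2 fold change 0.45, edgeR's adjusted p = 0.0595) and linc-109 lost their calls and linc-84 gained a call. Same-numbered libraries deviated together only at correlations of 0.0186, 0.00365 and 0.0170, so the numbers are not taken as a pairing, although each library correlated best with its own number. Low counts limit these results: 111 linc genes had under 10 reads over the day 10 libraries and 108 over the L4 libraries.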

Other observations

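Of the 101 linc genes with reads but below the count filter, the fit without a filter called 9. Of these, linc-50, linc-64, linc-74, linc-85, linc-94 and linc-103 were higher at day 10, and linc-55, linc-65 and linc-97 were lower. The gene linc-103 had 4, 10 and 26 counts at day 10, against 1, 0 and 2 in L4, a ratio of pooled levels of 11.3 (exact 95% counting interval 3.60 to 57.1), and of 5.89 (1.64 to 32.0) without day 10 replicate 3. The gene linc-85 had 6, 11 and 17 counts at day 10, against 1, 2 and 0 in L4, a ratio of 9.61 (3.02 to 48.9), and of 7.15 (2.07 to 38.1) without that library. At linc-65 there were no counts at day 10 and 3, 6 and 5 in L4, at least 5.50-fold lower at day 10. Both linc-103 and linc-85 were highest in day 10 replicate 3.

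The serial number in the symbol went with the number of reads. Of the 85 genes numbered up to 85, 36 were tested, with a median of 28 reads over the 6 libraries, and of the 85 with higher numbers 7 were tested, with a median of 7 reads. No source used here says how numbers were assigned.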
